A study of Mus musculus with 8 samples.

Results

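The genes described here were those of the Wnt pathway: the secreted Wnt ligands, their Frizzled receptors and LRP co-receptors, the secreted inhibitors of the SFRP and Dickkopf families, and 6 components that act inside the cell. They were picked by symbol (Wnt, Fzd, Sfrp and Dkk genes, with *Lrp5*, *Lrp6*, *Axin1*, *Axin2*, *Lef1*, *Tcf7*, *Ctnnb1* and *Apc*). The choice of this pathway was made with earlier results of these data known. The genes made up 45 of the 54752 genes listed: 19 ligands, 10 Frizzled receptors, 2 LRP co-receptors, 8 secreted inhibitors and 6 cytoplasmic or nuclear components. Their RNA was counted in 8 whole fetal brains of wild type mice (C57BL/6 in the labels, C57BL/6slac in the methods of the study) at E15.5, during the generation of cortical neurons. In the stress group the pregnant dam had been under chronic unpredictable mild stress (CUMS), a changing series of mild stressors that began early in pregnancy and ended the day before collection, and the dams of the control group had stayed in their home cages. Each group held 4 brains, with females F36 and F37 and males M30 and M31 in the control group and females F34 and F35 and males M28 and M29 in the stress group. According to the sample sheet of the study, all 4 control brains were littermates, and so were all 4 stress brains, of a different dam. Litter and condition therefore cannot be told apart, and every p-value measures only the spread between littermates. The libraries held between 25320109 and 29105710 counts each, with strand not used in the counting.

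Wnt proteins are secreted signals that bind a Frizzled receptor, together with LRP5 or LRP6 when they act through β-catenin. Without a Wnt signal, a complex built on Axin and APC marks β-catenin (*Ctnnb1*) for destruction, and with one β-catenin enters the nucleus and joins the DNA-binding proteins LEF1 and TCF7 on target genes such as *Axin2*. SFRP proteins bind Wnts outside the cell, and most Dickkopf proteins block the LRP co-receptors. In the embryonic brain the pathway is known for patterning the dorsal midline and the midbrain, for keeping neural progenitors dividing, and, through *Wnt7a* and *Wnt7b*, for the growth of brain blood vessels.

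After prenatal stress, 6 Wnt pathway genes rose, all by a small amount, and no ligand was among them. They were the receptors *Fzd8*, *Fzd2* and *Fzd1*, the inhibitor *Sfrp1*, the transcription factor *Lef1* and *Ctnnb1*, with rises from 7.45% for *Ctnnb1* to 20.99% for *Fzd8*. The test was edgeR's quasi-likelihood test over 17865 genes with sex as a covariate, and a gene was called at a Benjamini-Hochberg adjusted p under 0.05. Of the 45 genes, 38 passed the filter on low counts, and 6 of these 38 (15.8%) were called higher, against 6.49% of all genes tested. None was called lower, against 7.27% of all genes tested. At an unadjusted p under 0.05, 10 of the 38 (26.3%) were higher and 5 (13.2%) lower, against 13.2% and 13.7% of all genes. By DESeq2 4 were called, all higher, against 4.19% of all genes called higher by DESeq2. All 6 called genes were well expressed: they were among 17 Wnt pathway genes with a mean of at least 500 counts, and of all 8872 tested genes above that mean 9.41% were called higher and 10.8% lower. The median log2 fold change (Log2FC, stress over control) was 0.04 over the 38 genes and 0.0015 over all genes tested.

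The set of promoter windows used, from RefSeq starts (GRCm38.p6, the build of the counts), covered 29 of the 45 genes with 37 windows. A gene missing from this set may still have a start in RefSeq. Among the called genes these were *Fzd1*, *Lef1* and *Ctnnb1*, which rose together, and for each the 250 bases before 1 start are shown, 5′ to 3′ on the strand of the gene, to show where the letters of the LEF/TCF core lie. The core searched was CTTTGA on either strand, so that TCAAAG marks a match on the opposite strand, and matches are in capitals. The window of *Fzd1* lies at chr5:4758217-4758466 on the minus strand, and that of *Ctnnb1* at chr9:120933150-120933399 on the plus strand. The window of *Lef1* lies at chr3:131156044-131156293 on the plus strand, within an intron, before an internal start of the gene. That of *Ctnnb1* also lies within the annotated span of its gene (chr9:120929216-120960507), outside the exons.
Fzd1: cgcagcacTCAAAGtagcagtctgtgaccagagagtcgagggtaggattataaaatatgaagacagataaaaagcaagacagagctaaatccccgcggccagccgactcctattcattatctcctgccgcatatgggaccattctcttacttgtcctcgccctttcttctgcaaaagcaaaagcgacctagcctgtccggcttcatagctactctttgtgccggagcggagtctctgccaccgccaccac
Lef1: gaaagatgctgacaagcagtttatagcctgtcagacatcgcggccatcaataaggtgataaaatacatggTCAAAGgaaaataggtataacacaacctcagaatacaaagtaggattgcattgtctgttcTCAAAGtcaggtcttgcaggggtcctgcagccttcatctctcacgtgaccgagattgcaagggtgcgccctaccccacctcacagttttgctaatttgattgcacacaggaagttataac
Ctnnb1: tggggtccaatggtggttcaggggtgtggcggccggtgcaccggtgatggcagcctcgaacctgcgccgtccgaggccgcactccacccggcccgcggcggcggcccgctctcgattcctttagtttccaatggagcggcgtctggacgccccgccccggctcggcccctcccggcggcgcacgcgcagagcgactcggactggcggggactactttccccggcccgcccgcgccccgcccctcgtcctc
*Fzd1* held 1 match, 242 bases before its start, and the internal start of *Lef1* held 2, at 180 and 120 bases before it. Neither the *Ctnnb1* window shown nor any of the other 3 *Lef1* windows held the core. Over all windows of these genes, 5 of 37 (13.5%) held it, in *Fzd1*, *Lef1*, *Dkk1*, *Wnt5b* and *Wnt11*, and over all 32851 windows of the set, 13.8% did. A match in letters is no sign that a factor binds there.

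Levels of the genes were compared per length, as CPM (counts scaled to the total of the library) per kilobase of exon. *Ctnnb1* was the most abundant at 147 ± 5.88 CPM per kilobase (mean and SD of all 8 brains), followed by *Apc* at 35.5 ± 1.09, and by *Wnt7b*, *Sfrp1* and *Fzd3* at 22.9 ± 1.51, 22.7 ± 1.63 and 19.7 ± 0.378. Among ligands, *Wnt7b* stood apart from *Wnt7a* at 9.23 ± 0.418, and *Wnt7a* from *Wnt5a* at 3.51 ± 0.187, whereas the brains of *Wnt5a* and *Wnt3* (3.16 ± 0.141) overlapped. Below *Wnt3* there was a gap to *Wnt2b* at 1.02 ± 0.157, and from *Wnt2b* through *Wnt4*, *Wnt8b*, *Wnt5b*, *Wnt9a*, *Wnt3a*, *Wnt9b* and *Wnt1* each ligand overlapped with the next in order. *Wnt1*, made by few cells at the midbrain boundary and dorsal midline, was at 0.209 ± 0.0695 CPM per kilobase.

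**Figure D1:**
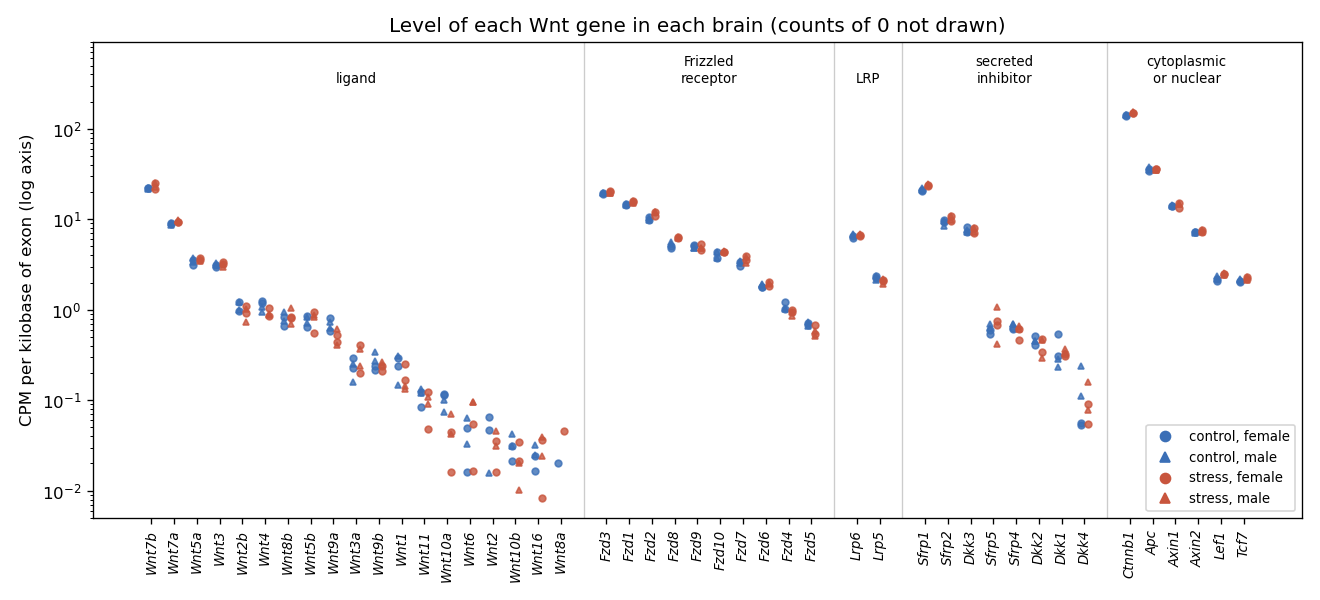
Level of each of the 45 Wnt pathway genes in each of the 8 brains, in CPM per kilobase of exon on a log axis, grouped by role and ordered by the mean of all brains. Circles are females and triangles males, blue control and red stress, and counts of 0 are not drawn; *Ctnnb1* lies highest at 147 and the littermates of the abundant genes lie close together, while the ligands below *Wnt1* scatter.

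The receptors were ordered *Fzd3*, *Fzd1* (15.1 ± 0.668 CPM per kilobase), *Fzd2* (10.9 ± 0.925) and *Fzd8* (5.74 ± 0.632), with no overlap of brains between the first 3 and their next neighbor. *Fzd8* overlapped with *Fzd9*, and *Fzd10* with *Fzd7*, and *Fzd6*, *Fzd4* and *Fzd5* closed the order at 1.89 ± 0.0879, 1.01 ± 0.10 and 0.641 ± 0.0819. *Lrp6* was above *Lrp5* in every brain, at 6.64 ± 0.222 against 2.18 ± 0.142 CPM per kilobase. Of the inhibitors, *Sfrp1*, *Sfrp2* (9.78 ± 0.826) and *Dkk3* (7.57 ± 0.472) were abundant and apart from each other, and the means of the other 5 were all between 0.105 (*Dkk4*) and 0.670 (*Sfrp5*) CPM per kilobase. Inside the cell, *Axin1* (14.4 ± 0.582) was above *Axin2* (7.29 ± 0.214), and *Lef1* (2.34 ± 0.173) and *Tcf7* (2.16 ± 0.101) overlapped. The coefficient of variation between control littermates ran from 1.09% for *Axin1* to 40.2% for *Dkk1*, with 1.12% for *Ctnnb1* and 4.15% for *Apc*, and a median of 5.79% over the 38 tested genes and 5.29% over all genes tested.

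The ligands were first compared between the groups. *Wnt7b*, the ligand with the highest level, was at 109, 109, 108 and 106 CPM in control F36, F37, M30 and M31 and at 123, 107, 124 and 111 CPM in stress F34, F35, M28 and M29. The stress brains divided into F34 and M28, above all others, and F35 and M29, in or just above the control range. The Log2FC was 0.11 ± 0.04 (SE) with an adjusted p of 0.0663 in edgeR's quasi-likelihood test, and it moved with single brains. The adjusted p was 0.0054 without stress F35 (0.15) and 0.035 without stress M29 (0.14), but 0.290 without stress F34 (0.07) and 0.316 without stress M28 (0.07). *Wnt7a* was at 28.98, 28.3, 27.2 and 28.9 CPM in the control brains, in the same order, and at 29.3, 29.3, 31.5 and 30.7 CPM in the stress brains. Each stress brain was above each control brain, the lowest of the first by a narrow margin, and the gene did not pass the test (Log2FC 0.09 ± 0.04, adjusted p = 0.182 by edgeR's quasi-likelihood test).

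The other 11 tested ligands also did not pass the test, with Log2FC values from -0.50 for *Wnt1* to 0.39 for *Wnt3a*. *Wnt9a* came nearest, with a mean of 2.30 ± 0.341 CPM in control brains and 1.65 ± 0.316 in stress brains (SD, n = 4), a Log2FC of -0.47 ± 0.16 and an adjusted p of 0.0507 in edgeR's quasi-likelihood test. It was called without control F37 (-0.56, adjusted p = 0.0421) and without stress M28 (-0.61, adjusted p = 0.0221). *Wnt4*, a ligand of many developing organs, had a Log2FC of -0.29 ± 0.10 (adjusted p = 0.0694), and *Wnt2b* one of -0.22 ± 0.12 (adjusted p = 0.257). Of the 13 tested ligands, 7 had a Log2FC above 0 and 6 below, and the median was 0.03.

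Another 6 ligands were under the filter, with at most 8 counts in any brain. *Wnt8a* had counts in 1 control and 1 stress brain only, with at most 2. *Wnt2* had 0 to 4 counts, *Wnt6* 1 to 6, *Wnt10b* 1 to 4 and *Wnt16* 1 to 5. *Wnt10a* had 8, 8, 5 and 7 counts in the control brains and 3, 1, 3 and 5 in the stress brains, which on the CPM scale did not overlap (0.181 to 0.291 against 0.0395 to 0.173 CPM). In the fit without a filter none of these 6 was called, with the lowest adjusted p at 0.195 for *Wnt10a* (unadjusted 0.0236, edgeR's quasi-likelihood test).

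Among the Frizzled receptors 3 of 10 (30%) rose, none fell, and 7 did not pass the test. Of all genes tested, 6.49% were called higher and 7.27% lower. *Fzd8*, a receptor of forebrain progenitors, was at 28.8, 29.9, 33.8 and 31.6 CPM in control F36, F37, M30 and M31 and at 37.95, 36.7, 37.4 and 38 CPM in stress F34, F35, M28 and M29. The stress brains were close to each other and all above the control brains. The rise was 0.27 ± 0.04 on the log2 scale (adjusted p = 0.00012 by edgeR's quasi-likelihood test), and it was between 0.25 and 0.31 when any 1 brain was left out.

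*Fzd2* (chr11:102604396-102608058 on mm10) was at 39.3, 36.2, 37.7 and 35.99 CPM in the control brains and at 43.9, 39.7, 43.6 and 43.9 CPM in the stress brains. Stress F35 lay just above the highest control brain, and the other 3 stress brains lay together well above it. Its Log2FC was 0.20 ± 0.04 (adjusted p = 0.00249 by edgeR's quasi-likelihood test), and 0.23 without stress F35. *Fzd1* (chr5:4753839-4758035), whose start window held 1 match, was at 60.2, 61.7, 59.6 and 62.3 CPM in the control brains and at 65.4, 67.3, 64.1 and 66.1 CPM in the stress brains. The groups did not overlap, but the gap between them was small. The Log2FC of 0.11 ± 0.03 passed the test in edgeR (adjusted p = 0.0306) and not in DESeq2 (adjusted p = 0.0780), and the call was lost without control F36 (adjusted p = 0.096), F37 (0.068) or M30 (0.113) or stress F35 (0.079) or M29 (0.093).

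*Fzd3*, a receptor best known for axon guidance, had the highest level of the family and did not change detectably. It was at 253, 245, 251 and 253 CPM in the control brains and at 253, 262, 252 and 251 CPM in the stress brains, so that stress F35 was above the other brains, whose groups overlapped (Log2FC 0.03 ± 0.03, adjusted p = 0.607 by edgeR's quasi-likelihood test). *Fzd4*, a receptor of blood vessel cells that also binds the ligand Norrin, had the opposite order of groups. It was at 8.08, 6.84, 6.93 and 7.07 CPM in the control brains and at 6.37, 6.64, 5.79 and 6.32 CPM in the stress brains. The 4 stress brains were below the 4 control brains, but the difference did not pass the test (Log2FC -0.20 ± 0.08, adjusted p = 0.112 by edgeR's quasi-likelihood test). *Fzd5* had a Log2FC of -0.26 ± 0.10 with overlapping groups (adjusted p = 0.0937), and was called lower only without stress F34 (-0.35, adjusted p = 0.0422). It shares 17.8% of its exon bases with *Gm38058*. *Fzd7*, *Fzd10*, *Fzd6* and *Fzd9* had Log2FC values from -0.02 to 0.14, with adjusted p of at least 0.154.

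**Figure D2:**
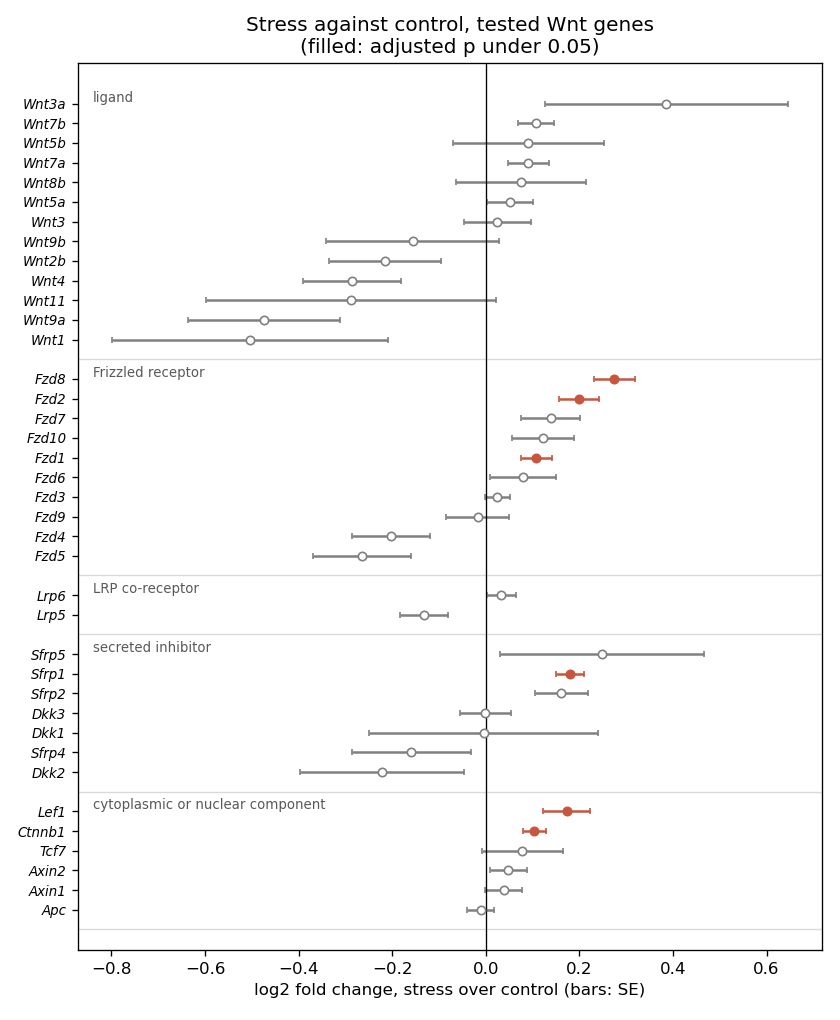
Log2FC of stress over control, with the SE as bars, for the 38 tested Wnt pathway genes, grouped by role. Filled red points passed the threshold of an adjusted p under 0.05 in edgeR's quasi-likelihood test; the 6 of them lie between 0.10 and 0.27, and the widest bars belong to ligands with few counts such as *Wnt1* and *Wnt3a*.

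The LRP co-receptors did not pass the test. *Lrp6* was at 85, 88.8, 90.6 and 94.4 CPM in the control brains and at 90.1, 91.5, 91.3 and 94.3 CPM in the stress brains, which lay within the control range (Log2FC 0.03 ± 0.03, adjusted p = 0.540 by edgeR's quasi-likelihood test). *Lrp5* was at 23.2, 21.7, 22.8 and 20.9 CPM in the control brains and at 20.6, 20.3, 21.1 and 18.9 CPM in the stress brains. Only stress M28 reached into the control range, and the Log2FC of -0.13 ± 0.05 had an adjusted p of 0.0913.

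Of the 7 tested inhibitors, *Sfrp1* rose (14.3%, against 6.49% of all genes tested) and 6 did not pass the test. *Sfrp1* (chr8:23411502-23449632), which binds Wnts and is made by cortical progenitors, was at 92.8, 90.5, 98.1 and 91.5 CPM in the control brains and at 106, 103, 108 and 106 CPM in the stress brains. All stress brains were above all control brains. Its Log2FC of 0.18 ± 0.03 (adjusted p = 0.000249 by edgeR's quasi-likelihood test) was between 0.16 and 0.20 with any 1 brain left out. *Sfrp2* was at 21.1, 19.99, 20.4 and 18.1 CPM in the control brains and at 23.3, 20.8, 21.2 and 23.7 CPM in the stress brains. Stress F34 and M29 were clearly above all control brains and stress M28 barely so, while stress F35 was below control F36. It had a Log2FC of 0.16 ± 0.06 and an adjusted p of 0.0581 in edgeR's quasi-likelihood test, which was 0.045 without control F36 and 0.020 without stress F35, but 0.227 without control M31, 0.168 without stress F34 and 0.255 without stress M29. It shares 16.1% of its exon bases with *Gm26771*.

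*Dkk3*, which differs from the other Dickkopf genes in not being a clear Wnt antagonist, was at 25.4 ± 1.53 CPM in control brains and 25.4 ± 1.87 in stress brains (SD, n = 4). *Dkk1*, *Dkk2*, *Sfrp4* and *Sfrp5* had between 16 and 82 counts in any brain, Log2FC values from -0.22 to 0.25 and adjusted p of at least 0.458 in edgeR's quasi-likelihood test. *Dkk4* had 2 to 9 counts and was under the filter.

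Inside the cell, 2 of 6 genes (33.3%) rose, against 6.49% of all genes tested. *Ctnnb1* (chr9:120929216-120960507) was at 724, 743, 739 and 734 CPM in the control brains and at 782, 780, 801 and 797 CPM in the stress brains. The stress brains were all above the control brains, with a Log2FC of 0.10 ± 0.02 and an adjusted p of 0.0051 in edgeR's quasi-likelihood test. Of its exon bases 15.1% are shared with *Ulk4* or *Mir7090*. Without strand, pairs within these bases fit more than 1 gene and may go uncounted. *Lef1* (chr3:131110471-131224356) was at 19.1, 18.3, 20.9 and 19.3 CPM in the control brains and at 21.8, 21.9, 21.3 and 22.3 CPM in the stress brains. The groups did not overlap, and control M30 came nearest to the stress brains.

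The Log2FC of *Lef1* was 0.17 ± 0.05, with an adjusted p of 0.0223 in edgeR's quasi-likelihood test and of 0.0823 in DESeq2. The call was lost without control F37 (adjusted p = 0.0928), control M31 (0.065), stress F34 (0.063), stress F35 (0.051) or stress M29 (0.064). Of its exon bases 13.7% are shared with *Gm43352*. *Apc*, the scaffold of the complex that destroys β-catenin, was at 539, 568, 548 and 592 CPM in the control brains and at 570, 564, 547 and 549 CPM in the stress brains. These overlapped, with control M31 highest, and the Log2FC was -0.01 ± 0.03 (adjusted p = 0.858 by edgeR's quasi-likelihood test). *Axin1*, *Axin2* and *Tcf7* had Log2FC values of 0.04 ± 0.04, 0.05 ± 0.04 and 0.08 ± 0.09, none past the test.

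**Figure D3:**
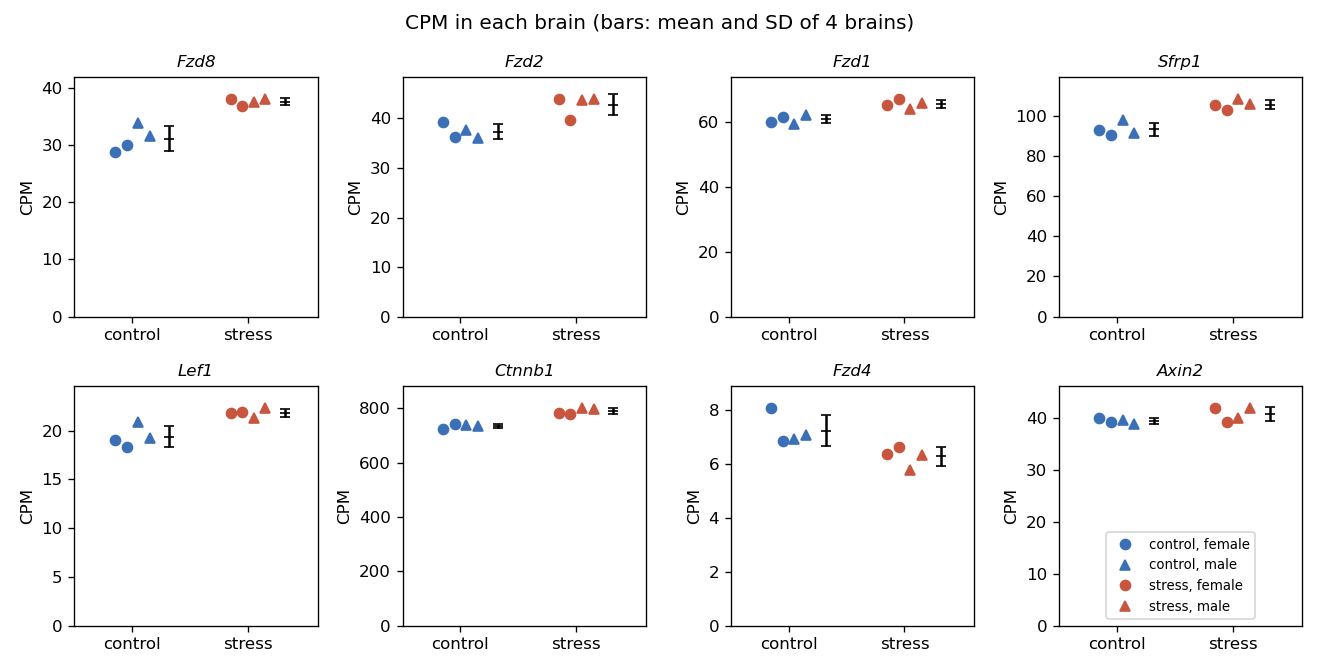
CPM of the 6 called genes, and of *Fzd4* and *Axin2* for comparison, in each brain, with axes starting at 0. Circles are females, triangles males, and the black bars are the mean and SD of the 4 brains of a group; in the 6 called genes and, in the other direction, in *Fzd4* the groups do not overlap, while in *Axin2* (39.5 against 40.8 CPM on average) they do.

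The groups were also compared by overlap alone. Of the 38 tested genes, 7 were higher in every stress brain than in every control brain (the 6 called and *Wnt7a*; 18.4%), against 8.2% of all genes tested, and 1 (*Fzd4*) was lower in every stress brain, against 8.22%. Within each sex alone, 20 of the 38 genes (52.6%) had a Log2FC above 0 in both sexes and 11 (28.9%) below 0 in both, against 32.7% and 31.9% of all genes.

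Females and males were also fitted alone, with 2 brains against 2. Among females, *Fzd8* (0.35 ± 0.06) and *Sfrp1* (0.18 ± 0.05) were called higher, against 1.64% of all genes. Among males, *Fzd8* (0.21 ± 0.06), *Fzd2* (0.25 ± 0.06), *Sfrp1* (0.17 ± 0.04) and *Ctnnb1* (0.12 ± 0.03) were, against 3.68% of all genes. The 6 called genes had a Log2FC above 0 in both sexes. No Wnt pathway gene passed the test of a sex by stress interaction, where 0.0056% of all genes did, and none had an unadjusted p under 0.05. The lowest were those of *Dkk1* (0.0855), *Apc* (0.0967) and *Fzd8* (0.102). None differed between females and males either, with the lowest adjusted p at 0.855, none under 0.05 unadjusted, and 0.0896% of all genes called. DESeq2 called none of them in these 2 tests.

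The make-up of each family was described as the share of each gene in the summed CPM per kilobase of its role. *Wnt7a* and *Wnt7b* together made up 71.1% to 73.0% of the ligand total in the control brains and 72.7% to 74.9% in the stress brains. The ligand total itself was 43.1 ± 0.650 CPM per kilobase in the control and 45.0 ± 2.20 in the stress group, with overlapping brains. The total of the Frizzled receptors was 64.3 to 65.9 CPM per kilobase in the control brains and 69.3 to 70.9 in the stress brains, and that of the inhibitors 38.8 to 41.7 against 42.1 to 45.1, neither overlapping. Within the receptors, *Fzd8* made up 7.31% to 8.60% in the control and 8.86% to 9.12% in the stress brains, and *Fzd3* 29.7% to 30.3% against 27.9% to 29.6%. *Fzd1* kept a like share (22.2% ± 0.666 against 22.4% ± 0.550). These sums and shares were not tested.

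**Figure D4:**
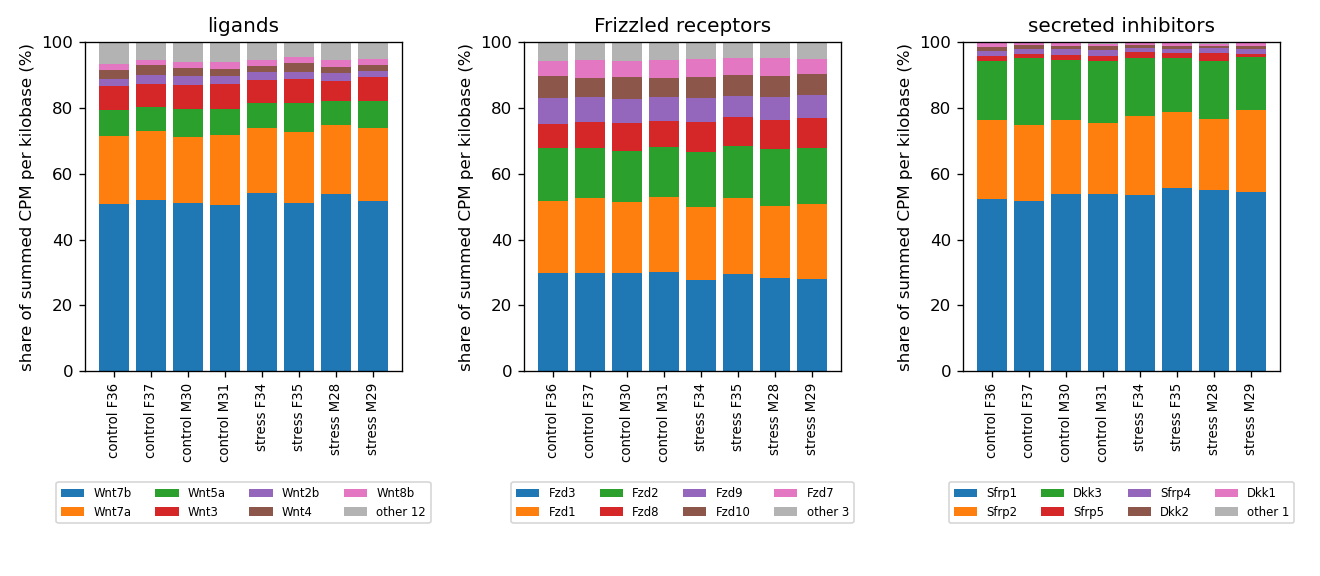
Share of each gene in the summed CPM per kilobase of the 19 ligands, the 10 Frizzled receptors and the 8 secreted inhibitors in each brain, in percent, with the 7 most abundant genes in color and the rest in gray. *Wnt7b* and *Wnt7a* fill 71.1% to 74.9% of the ligand bars, and no bar departs far from the others.

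Other genes of the pathway were taken from a list of 68 genes that the choice by symbol did not cover, of which 65 passed the filter. The list includes *Frzb*, an SFRP family gene under another symbol, and *Dkkl1*, so the inhibitor counts and sums above leave these out. Of these, 6 (9.23%) rose and 2 (3.08%) fell, against the 6.49% and 7.27% of all genes, with a median Log2FC of 0.02. Of 4 secretion genes none passed the test, and of 20 tested extracellular genes 1 rose, *Apcdd1*, a membrane inhibitor of Wnt signaling (0.15 ± 0.03, adjusted p = 0.00228 by edgeR's quasi-likelihood test). It was at 80.4, 82.2, 81.1 and 82.3 CPM in the control brains and at 96.8, 87.2, 89.8 and 89.1 CPM in the stress brains, with no overlap. The receptors and core proteins of planar cell polarity, the branch that orients cells without β-catenin, gave 4 rises among 12 tested: *Vangl2* (0.13 ± 0.03), *Celsr1* (0.17 ± 0.05), *Celsr2* (0.10 ± 0.03) and *Ptk7* (0.12 ± 0.04).

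Of these 4, *Vangl2* kept its call with any 1 brain left out and in DESeq2. *Celsr1* kept it in 5 of 8 such fits, *Celsr2* and *Ptk7* in 2 of 8, and none of these 3 in DESeq2. The Log2FC of *Celsr1* fell to 0.10 without stress F34 (adjusted p = 0.124), and that of *Celsr2* to 0.06 (adjusted p = 0.218). Among 18 cytoplasmic genes 2 fell: *Dvl1*, which relays the signal from Frizzled (-0.13 ± 0.03, adjusted p = 0.00255), and *Nkd2*, an inhibitor that binds Dishevelled (-0.21 ± 0.06, adjusted p = 0.0152, and 0.074 without control F37 and 0.079 without control M31). Among 11 nuclear genes 1 rose, *Tcf7l1*, mostly a repressor of Wnt targets (0.24 ± 0.08, adjusted p = 0.0359), which kept its call in 3 of 8 fits with 1 brain left out. The count of higher genes in this list went from 6 to 3 without control F36, control F37, control M31 or stress M28, and to 2 without stress F34.

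Genes that respond to β-catenin in many tissues did not all move one way. Of 12 such readout genes, all tested, 3 (25%) rose (*Lef1*, *Apcdd1* and *Ccnd1*), 1 (8.33%) fell (*Myc*) and 8 did not pass the test. Of all genes tested, 6.49% were called higher and 7.27% lower. The median Log2FC of the 12 was 0.07. Their summed level was 309 to 312 CPM in the control brains and 321 to 338 CPM in the stress brains. These sums did not overlap and were not tested. *Ccnd1*, which drives entry into the cell cycle, had a Log2FC of 0.13 ± 0.04 (adjusted p = 0.0324 by edgeR's quasi-likelihood test, and in DESeq2 0.0906), and *Myc* one of -0.24 ± 0.05 (adjusted p = 0.000855). *Myc* was at 30.5, 29.1, 30.1 and 27.6 CPM in the control brains and at 24.4, 25.9, 23.7 and 25.3 CPM in the stress brains, with no overlap. *Axin2*, a widely used readout of the pathway, was at 40.0, 39.3, 39.7 and 38.8 CPM in the control brains and at 41.9, 39.3, 40.0 and 42.0 CPM in the stress brains. Stress F35 and M28 lay among the control brains, and the Log2FC was 0.05 ± 0.04 (adjusted p = 0.474 by edgeR's quasi-likelihood test). *Nkd1*, *Sp5*, *Notum*, *Lgr5*, *Rnf43* and *Znrf3* had Log2FC values from -0.04 to 0.20, and none of them passed. *Tnfrsf19* did not pass either. The 3 rises went down to 1 without stress F34 or without stress M29.

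Markers of the cells that make up the brain moved between the groups as well. Beside the counts below, 6.49% of all genes tested were called higher and 7.27% lower. Among those with a mean of at least 500 counts, 9.41% were called higher and 10.8% lower. In bulk tissue, fewer cells of a type and less RNA per cell cannot be told apart. All 8 markers of cycling cells rose, with a summed level of 497 to 540 CPM in the control and 565 to 647 CPM in the stress brains. Of 9 radial glia markers 4 rose (*Pax6*, *Sox2*, *Nes* and *Vim*). The sum of all 9 overlapped between the groups (1575 to 1673 against 1609 to 1737 CPM). Of the neuronal markers 4 of 8 fell (7099 to 7346 against 7002 to 7281 CPM). Of the cortex markers used 4 of 6 rose (1047 to 1096 against 1123 to 1171 CPM). The thalamus markers, of which *Lhx2* is also a cortical gene, had 3 rises of 5 (300 to 326 against 333 to 365 CPM). The part of all these cells in the rises of *Fzd8*, *Fzd2*, *Fzd1*, *Sfrp1*, *Lef1* and *Ctnnb1* was not tested. Endothelial markers fell in 5 of 8 cases, with summed levels of 178 to 197 CPM against 161 to 172 CPM, beside the lower values of *Fzd4*, and their part in these values was not tested. *Flt1* and *Kdr*, receptors of vascular growth factor, had Log2FC values of -0.41 ± 0.06 and -0.29 ± 0.04.

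Tissue at the edge of the brain differed from brain to brain. The counts of rises here also stand beside the 6.49% of all genes tested that were called higher. Choroid plexus markers had 2 rises of 7 tested (41 to 51 against 50 to 79 CPM), where *Ttr* was at 29.95 CPM in stress F34 and at 0.56 to 6.95 CPM in the other 7 brains. Markers of the meninges had 3 rises of 7 tested (17 to 31 against 23 to 65 CPM), highest in stress M28. Hindbrain markers had none of 6, with sums from 14 to 33 CPM over all brains, and those of the dorsal midline and cortical hem, where several Wnts are made, had none of 5 tested (17.7 to 20.1 against 17.3 to 18.8 CPM). The midbrain and isthmus had 1 rise of 6 tested, erythroid cells 2 of 7, and microglia, muscle, pituitary and surface epithelium none of the 7, 4, 3 and 2 genes that passed the filter, though the pituitary sum was lower in all stress brains (3.02 to 3.64 against 2.58 to 2.90 CPM). *Krt5*, *Krt14* and *Krt15* were at no more than 3 counts in any brain. Without stress F34 or stress M28, *Fzd8*, *Fzd2*, *Fzd1*, *Sfrp1* and *Ctnnb1* were still called higher, while *Lef1* was not called without stress F34 (adjusted p = 0.063 by edgeR's quasi-likelihood test).

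**Figure D5:**
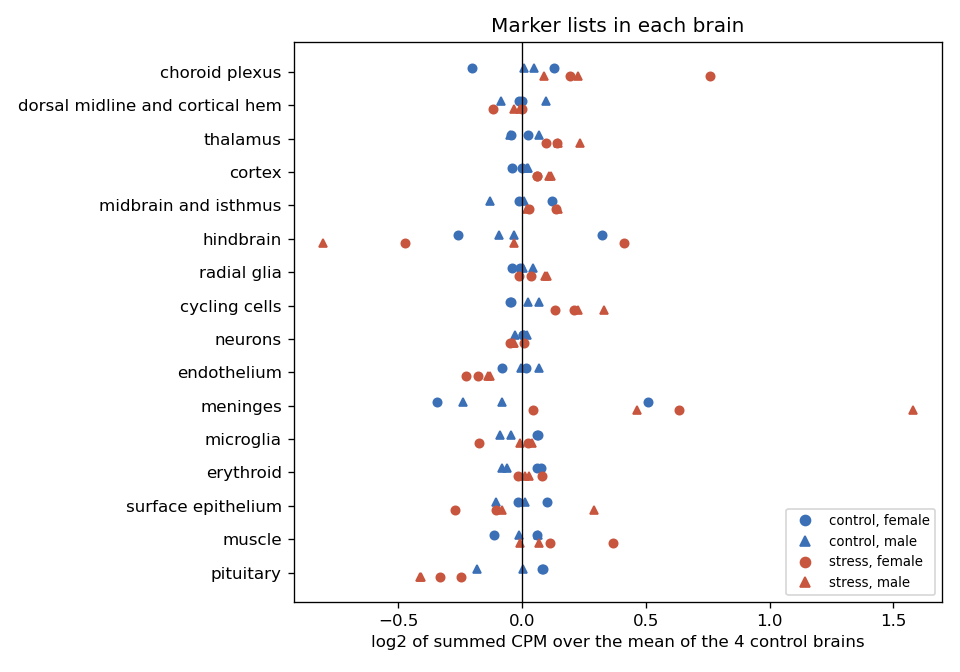
Summed CPM of each of 16 marker lists in each brain, as the log2 ratio to the mean of the 4 control brains. Circles are females, triangles males, blue control and red stress; cycling cells lie to the right and endothelium to the left in all 4 stress brains, and the meninges spread widest, with stress M28 at the far right.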

How the data were processed

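Total RNA of 8 whole fetal mouse brains was used by the authors for poly(A) libraries, 1 per brain, which were sequenced as paired reads. The authors trimmed the reads and mapped them to mm10 (TopHat2 2.1.1), and featureCounts 1.6.3 assigned the pairs to GENCODE M20 genes by exon, with no strand option given. They deposited raw counts, neither scaled nor filtered. From these counts, 17865 genes passed edgeR's filterByExpr (minimum count 10, by group), were scaled by TMM (factors from 0.996 to 1.002) and tested with glmQLFit and glmQLFTest (edgeR 4.0.16, R 4.3.3) with sex and condition. The study itself used DESeq2 with sex, batch and condition, on a larger set of brains from more litters. DESeq2 (version 1.42.0) was run here as an alternative on the 8 brains alone, with sex and condition. An SE is the Log2FC divided by the square root of F. CPM uses the TMM-scaled totals, and CPM per kilobase divides by the union of exon bases given with the counts (GENCODE M20). Bases shared with other genes are included, so levels per kilobase of genes with shared exons may be too low. Symbols were taken from GENCODE M21 on the same build and matched for 54723 of 54752 genes. The groups and sexes are those of the labels, and no label or file names a batch for these brains.

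The members and lists were chosen with earlier results of these data known. Values of every brain were given for called members, members whose groups did not overlap and the 2 most abundant of each role, of the other pathway genes those called were named, and *Fzd5*, *Wnt9a*, *Wnt4*, *Wnt2b*, *Dkk3* and *Axin2* were also described after their values were seen. Alternatives were other scalings, no filter, no sex covariate, each sex alone and each brain left out in turn. On simulated counts of 17675 genes, for 4 brains against 4 and a planted Log2FC of 0.5, edgeR recovered 73.5% of 200 changed genes with 5 false calls. No changes of the size seen here were simulated. An exact permutation test of 4 against 4 cannot go below 0.0286. Of the marker genes listed, 2 are not reported here and were left out of the counts and sums of their lists.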

Additional observations from a re-analysis of the deposited data

Results flagged for a closer look

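In 76 groups of 4 brains (38 tested genes in each condition), the highest and the lowest brain were set against the rest, and 2 values stood apart from the other 3 of their group by Dixon's criterion, both in stress F35. Chance gives such a value in about 1 of 20 groups. *Fzd2* was at 39.7 CPM in stress F35, against 43.6 to 43.9 CPM in the other 3 stress brains. *Fzd3* was at 262 CPM in stress F35, against 251 to 253 CPM in the other 3. Stress F35 was also the library with the lowest total, 25320109 counts, and its part in these values was not tested. No gene moved in opposite directions in every female and every male.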

How the results depend on the processing

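The 6 Wnt pathway genes called higher went to 2 in females alone and to between 4 and 6 with 1 brain left out. It stayed at 6 without a filter, where *Fzd1* was lost (adjusted p = 0.074) and the ligand *Wnt7b* was called (0.024). The 0 called lower went to 1 (*Wnt9a*) without a filter on low counts, and to between 0 and 1 with 1 brain left out. Of the other pathway genes, the 6 higher went to 2 in DESeq2, 2 in females alone and 1 in males alone, and to between 2 and 6 with 1 brain left out. The 2 lower went to 1 in DESeq2, 1 in females alone and 0 in males alone, and to between 1 and 3 with 1 brain left out. The 3 readout genes higher went to 1 in DESeq2 and 1 in females alone, and to between 1 and 2 with 1 brain left out. Fits of 1 sex hold 4 brains and fits without 1 brain hold 7, and for the rest the cause was not tested. No called value changed sign. Among the Wnt pathway genes not called but given for every brain, *Apc* (-0.01) was at 0.04 in females alone and at 0.02 without control M31. *Fzd3* (0.03) was at -0.0017 in males alone. Other genes that were not called changed sign too, such as *Dkk1*, at -0.40 in females alone and 0.44 in males alone. Scaling by size factors or library totals changed no call among the named genes. *Fzd8* and *Sfrp1* were called under every alternative, *Fzd2* and *Ctnnb1* under every one but females alone. No paired analysis was possible because the groups share no replicate numbers. Ligands under the filter, at no more than 8 counts, allow no comparison at this depth.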
